A study of Homo sapiens with 24 samples.

Results

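A set of 8 genes parted the pair of siRNAs against ZBED2: RHOBTB3, YWHAH, TMEM14B, HDGF, MAP7D1, RAB12, DAB2 and CHMP4B. They were 8 of the 58721 genes in the count table and were chosen by the measured counts of the single ZBED2 siRNA libraries, because siZBED2-1 and siZBED2-2 gave different levels of each in both cell lines. Each gene had 1 row in the table, and all 8 passed the low-count filter. The difference between the single siRNAs is therefore given as a description, and the tests below rest on the libraries that the choice did not use, siControl and those in which FOXA1 was knocked down. The question was whether the genes also differed between the ZBED2 siRNAs when FOXA1 was knocked down as well.

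The samples were RT112, a luminal papillary bladder cancer line, and SCaBER, a basal/squamous bladder cancer line, each reverse transfected in culture with siRNA. The 6 treatments per line were siControl (siControl number 2 by its label), siZBED2-1, siZBED2-2, siFOXA1, siFOXA1+siZBED2-1 and siFOXA1+siZBED2-2, with 2 libraries each and 24 in all. Every FOXA1 knock-down used the same FOXA1 siRNA, and the double knock-downs had no arm in which siControl filled the place of the ZBED2 siRNA, so siFOXA1 alone served as their reference. The 2 libraries of a group carry an experiment batch number, and nothing states that they came from separate cell stocks, so p-values measure the spread between these libraries. Reads came from the 3′ ends of polyadenylated RNA (3′ RNA-seq) and are given as CPM, counts relative to the TMM-scaled library size within each line. Total counts ran from 4425404 to 6119210 per library, and 3 counts, the most that a count of 0 allows, were worth between 0.479 and 0.679 CPM (counting error only). As a check of the labels, all 9 luminal markers tested were higher in RT112 than in SCaBER with siControl and 7 of 10 basal markers were lower, while KRT16 and ITGB4 were higher in RT112 and TP63 was not called. KRT20 and UPK3A had no counts with siControl in either line. Of 8 markers of other cell types, PTPRC, CD3E and DCN had no counts there, while LUM reached 855 counts.

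ZBED2 is a BED-type zinc finger transcription factor, and FOXA1 is a pioneer factor of luminal cells. An siRNA guide strand is loaded into an Argonaute protein and cleaves the transcript to which it pairs along its length. Guides can also act on other transcripts as a miRNA does, through pairing of the seed (bases 2 to 8 of the guide) with sites in 3′ UTRs, and for this reason separate siRNAs to 1 gene are commonly used side by side. Whether the 8 genes share a pathway was not tested. YWHAH is the eta form of the 14-3-3 adaptors, HDGF is a PWWP-domain protein, MAP7D1 binds microtubules, RAB12 is a small GTPase of endosomal traffic, CHMP4B is a core ESCRT-III subunit, DAB2 is a clathrin adaptor and TMEM14B is a small membrane protein.

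The 7 genes that were lower with siZBED2-1 shared a heptamer, GCATCTG, in the 3′ UTR of their canonical transcripts. It was found by ranking all heptamers after the values of these libraries had been seen, and 14.2% of genes hold it, so it is given as a description. The windows are shown because sequence was not used to choose the genes. Each line gives 30 bases of the transcript strand around the heptamer, which stands in capitals.
RHOBTB3: ttattttatttaaaGCATCTGtttaattca
YWHAH: cttttcaatgcaatGCATCTGaaagttttg
TMEM14B: agtgcagcatttttGCATCTGacattttac
HDGF: ggtgggagtgttgaGCATCTGtcccccttt
MAP7D1: gaatcagtgttactGCATCTGattaaatgt
RAB12: ttcccccagtggtaGCATCTGaagtattgg
CHMP4B: ttagctgtaataatGCATCTGattttgatt

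These windows lie in 3′ UTR exons at chr5:95131917-95131946, plus strand (RHOBTB3), chr22:32353351-32353380, plus strand (YWHAH), chr6:10756832-10756861, plus strand (TMEM14B), chr1:156712485-156712514, minus strand (HDGF), chr1:36646393-36646422, plus strand (MAP7D1), chr18:8638720-8638749, plus strand (RAB12) and chr20:32441831-32441860, plus strand (CHMP4B) of GRCh37, from GENCODE release 44 lifted to that build. The read counts were made on hg38, and no coordinate was carried between the builds. Outside the heptamer the windows differ, though not at every base. The base after it is A in 5 of 7, and the base before it is T in 4 and A in 3. YWHAH, TMEM14B, MAP7D1 and CHMP4B have both the T before it and the A after it. The heptamer starts between base 95 (TMEM14B) and base 3053 (RHOBTB3) of the 3′ UTR.

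DAB2, the 1 gene that was higher with siZBED2-1, does not hold the heptamer in its 3′ UTR. Its canonical transcript holds it once in the 5′ UTR and once in the coding sequence. ZBED2, the target of both siRNAs, holds it at 2 places outside its 3′ UTR, in the 5′ UTR (chr3:111313608-111313637, minus strand) and in the coding sequence (chr3:111312734-111312763, minus strand), and the FOXA1 transcript holds none. The ZBED2 windows are given for comparison with those above.
ZBED2 5′ UTR: tgtctcctgcaccaGCATCTGcctgtgttt
ZBED2 coding sequence: actgcactgtggaaGCATCTGaaaagcatg

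The sequences of siZBED2-1 and siZBED2-2 are not given in the sources used here, so whether either pairs with these windows was not tested. Of 2545 mature human miRNAs in RefSeq, 0 carry the complement of the heptamer, CAGAUGC, at bases 2 to 8.

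Between the double knock-downs, 7 of the 8 genes differed in RT112 and all 8 in SCaBER, in the direction by which they were chosen. A gene was called at an adjusted p under 0.05 (edgeR quasi-likelihood test, Benjamini-Hochberg over all genes tested). In RT112, 7 genes were lower with siFOXA1+siZBED2-1 than with siFOXA1+siZBED2-2, against 0.878% of all 12649 genes tested that were called lower, and DAB2 was not called, where 0.53% of all genes were called higher. In SCaBER, 7 were lower, where 0.863% of 12627 genes were called lower, and DAB2 was higher, where 0.348% were. In either direction 1.41% of genes were called in RT112 and 1.21% in SCaBER. The median log2 difference of the 8 genes was -1.05 in both lines, beside 0.00 over all genes tested in each. Over both lines at once (4 libraries against 4), all 8 were called, where 2.8% of 14155 genes were. The SCaBER count fell to 5 of 8 without any 1 of its 4 double knock-down libraries, when HDGF, DAB2 and CHMP4B no longer passed, and the RT112 count fell to 5 at the least. With the replicate block the members called were as before, while the calls over all genes rose to 337 from 178 in RT112 and to 281 from 153 in SCaBER. With limma on log2(TPM + 1), 2 of 8 passed in RT112 (TMEM14B and CHMP4B) and 3 of 8 in SCaBER (YWHAH, TMEM14B and MAP7D1).

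**Figure D1:**
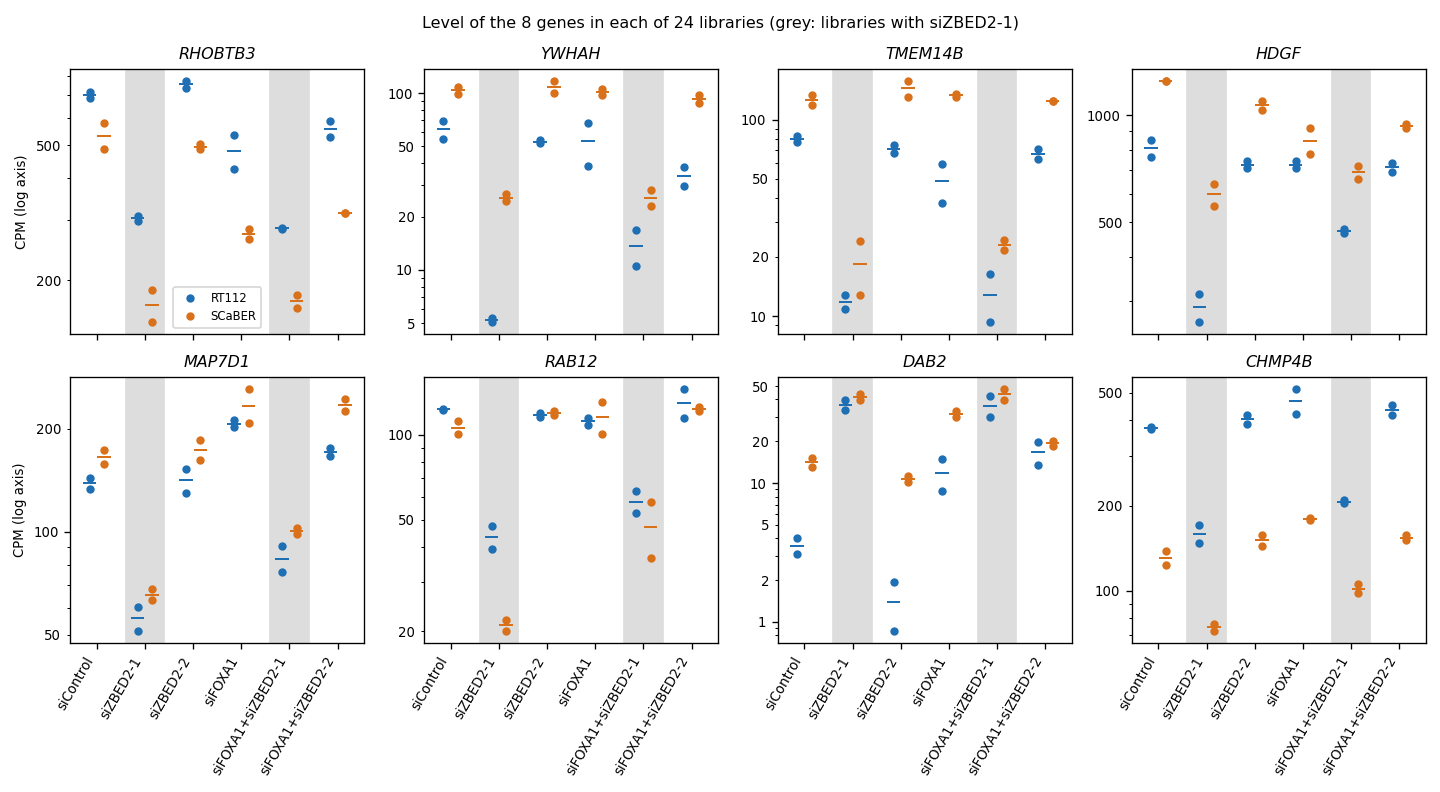
CPM (log axis, scaled within each line) of the 8 genes in every library by siRNA treatment, as 1 point per library with a bar at the mean of 2; RT112 is blue and SCaBER orange, and grey bands mark libraries with siZBED2-1. In each line the 4 libraries with siZBED2-1 sit below the other 8 for 7 genes and above them for DAB2. The single ZBED2 siRNA libraries that chose the genes are in both groups, so part of this separation follows from the choice. The share of all genes separated in this way was not counted.

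TMEM14B showed the largest difference of the set between the double knock-downs in both lines. In RT112, TMEM14B stood at 76.8 and 82.4 CPM with siControl, 59.6 and 37.6 with siFOXA1, 9.33 and 16.4 with siFOXA1+siZBED2-1 and 70.5 and 63.4 with siFOXA1+siZBED2-2. In SCaBER, TMEM14B stood at 119 and 134 CPM with siControl, 135 and 131 with siFOXA1, 24.5 and 21.6 with siFOXA1+siZBED2-1 and 125 and 124 with siFOXA1+siZBED2-2. In neither line did the libraries with siFOXA1+siZBED2-1 overlap those of any arm without siZBED2-1. In RT112 the TMEM14B level was 5.19-fold lower with siFOXA1+siZBED2-1 than with siFOXA1+siZBED2-2 (log2 difference -2.38 ± 0.29 (SE), n = 2 and 2, adjusted p = 0.000236). TMEM14B was 5.41-fold lower with siFOXA1+siZBED2-1 than with siFOXA1+siZBED2-2 in SCaBER (log2 difference -2.44 ± 0.17 (SE), n = 2 and 2, adjusted p = 2.39e-08). TMEM14B was chosen by the single siRNA libraries, which held 12.9 and 10.8 CPM with siZBED2-1 against 67.4 and 74.4 with siZBED2-2 in RT112, and 12.8 and 24.0 against 158 and 131 in SCaBER.

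The TMEM14B values carry a limit, since its neighbour on chromosome 6, TMEM14C, is a paralogue. The canonical 3′ UTRs of the 2 genes (463 and 461 bases) are identical at 419 of 470 aligned positions, 89.2%, and their 30-base windows around the heptamer are the same. Reads from 1 gene may be counted under the other or lost as multiple alignments, so which of the 2 transcripts fell is uncertain. TMEM14C, whose protein takes part in haem synthesis in mitochondria, was itself lower with siFOXA1+siZBED2-1 (log2 difference -2.67 ± 0.34 (SE), adjusted p = 0.000372, in RT112 and -1.31 ± 0.21 (SE), adjusted p = 0.002, in SCaBER).

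YWHAH encodes an adaptor that binds phosphorylated serine and threonine motifs. In RT112, YWHAH stood at 55.0 and 69.6 CPM with siControl, 68.1 and 38.8 with siFOXA1, 16.8 and 10.5 with siFOXA1+siZBED2-1 and 38.3 and 29.7 with siFOXA1+siZBED2-2. In RT112 the YWHAH level was 2.50-fold lower with siFOXA1+siZBED2-1 than with siFOXA1+siZBED2-2 (log2 difference -1.32 ± 0.32 (SE), n = 2 and 2, adjusted p = 0.0417). The RT112 call was lost in 3 of 4 fits that left out 1 double knock-down library (adjusted p up to 0.326; log2 difference between -1.70 and -1.02 over all alternatives). In SCaBER, YWHAH stood at 109 and 98.8 CPM with siControl, 105 and 97.1 with siFOXA1, 28.1 and 23.1 with siFOXA1+siZBED2-1 and 97.2 and 87.8 with siFOXA1+siZBED2-2. YWHAH was 3.61-fold lower with siFOXA1+siZBED2-1 than with siFOXA1+siZBED2-2 in SCaBER (log2 difference -1.85 ± 0.18 (SE), n = 2 and 2, adjusted p = 7.27e-06), and it was called under all 10 alternatives. YWHAH was chosen by the single siRNA libraries, which held 5.34 and 5.08 CPM with siZBED2-1 against 52.2 and 54.1 with siZBED2-2 in RT112, and 26.9 and 24.4 against 100.2 and 117 in SCaBER. In RT112 the double knock-down levels with siZBED2-1 were above the single ones, and siFOXA1+siZBED2-2 was below siFOXA1 in both libraries, without passing the test.

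RHOBTB3 binds CUL3, the scaffold of a family of ubiquitin ligases. In RT112, RHOBTB3 stood at 689 and 717 CPM with siControl, 426 and 537 with siFOXA1, 283 and 286 with siFOXA1+siZBED2-1 and 528 and 587 with siFOXA1+siZBED2-2. In SCaBER, RHOBTB3 stood at 579 and 487 CPM with siControl, 265 and 283 with siFOXA1, 166 and 181 with siFOXA1+siZBED2-1 and 315 and 316 with siFOXA1+siZBED2-2. RHOBTB3 fell with siFOXA1 alone in both lines, and fell further with siZBED2-1 added. In RT112 the RHOBTB3 level was 1.97-fold lower with siFOXA1+siZBED2-1 than with siFOXA1+siZBED2-2 (log2 difference -0.97 ± 0.13 (SE), n = 2 and 2, adjusted p = 0.000552). RHOBTB3 was 1.82-fold lower with siFOXA1+siZBED2-1 than with siFOXA1+siZBED2-2 in SCaBER (log2 difference -0.87 ± 0.13 (SE), n = 2 and 2, adjusted p = 0.000695). RHOBTB3 was chosen by the single siRNA libraries, which held 308 and 299 CPM with siZBED2-1 against 735 and 772 with siZBED2-2 in RT112, and 187 and 151 against 502 and 487 in SCaBER.

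HDGF, a heparin-binding protein found mostly in the nucleus, had the smallest differences of the set in both lines. In RT112, HDGF stood at 762 and 852 CPM with siControl, 740.5 and 711 with siFOXA1, 479 and 466 with siFOXA1+siZBED2-1 and 694 and 734 with siFOXA1+siZBED2-2. In SCaBER, HDGF stood at 1247 and 1242 CPM with siControl, 777 and 917 with siFOXA1, 719 and 661 with siFOXA1+siZBED2-1 and 922 and 943 with siFOXA1+siZBED2-2. The double knock-downs did not overlap. In RT112 the HDGF level was 1.51-fold lower with siFOXA1+siZBED2-1 than with siFOXA1+siZBED2-2 (log2 difference -0.60 ± 0.12 (SE), n = 2 and 2, adjusted p = 0.0113). HDGF was 1.36-fold lower with siFOXA1+siZBED2-1 than with siFOXA1+siZBED2-2 in SCaBER (log2 difference -0.44 ± 0.10 (SE), n = 2 and 2, adjusted p = 0.0394). The SCaBER call was lost without any 1 of the 4 double knock-down libraries (log2 difference between -0.50 and -0.38 over all alternatives, adjusted p up to 0.442), and the RT112 call without siFOXA1+siZBED2-1 replicate 2 (-0.58, adjusted p = 0.0871) or siFOXA1+siZBED2-2 replicate 2 (-0.56, adjusted p = 0.103). HDGF was chosen by the single siRNA libraries, which held 314 and 263 CPM with siZBED2-1 against 741 and 711 with siZBED2-2 in RT112, and 557 and 640.3 against 1034 and 1094 in SCaBER.

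MAP7D1, a microtubule-associated protein, rose with siFOXA1 and was low in every library with siZBED2-1. In RT112, MAP7D1 stood at 144 and 134 CPM with siControl, 212 and 202 with siFOXA1, 76.1 and 90.7 with siFOXA1+siZBED2-1 and 175 and 166 with siFOXA1+siZBED2-2. In SCaBER, MAP7D1 stood at 173 and 158 CPM with siControl, 260.3 and 207 with siFOXA1, 98.6 and 102 with siFOXA1+siZBED2-1 and 244 and 226 with siFOXA1+siZBED2-2. With siFOXA1+siZBED2-1 it stood below siControl in both lines, whereas siFOXA1+siZBED2-2 stood above it. In RT112 the MAP7D1 level was 2.05-fold lower with siFOXA1+siZBED2-1 than with siFOXA1+siZBED2-2 (log2 difference -1.03 ± 0.15 (SE), n = 2 and 2, adjusted p = 0.00146). MAP7D1 was 2.35-fold lower with siFOXA1+siZBED2-1 than with siFOXA1+siZBED2-2 in SCaBER (log2 difference -1.23 ± 0.15 (SE), n = 2 and 2, adjusted p = 6.87e-05). MAP7D1 was chosen by the single siRNA libraries, which held 60.4 and 51.4 CPM with siZBED2-1 against 129.8 and 153 with siZBED2-2 in RT112, and 63.1 and 68.0 against 185 and 162 in SCaBER.

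RAB12 works in transport from endosomes to lysosomes. In RT112, RAB12 stood at 124 and 123 CPM with siControl, 109 and 115 with siFOXA1, 63.2 and 52.7 with siFOXA1+siZBED2-1 and 115 and 145 with siFOXA1+siZBED2-2. In SCaBER, RAB12 stood at 112 and 101 CPM with siControl, 131 and 101 with siFOXA1, 57.6 and 36.6 with siFOXA1+siZBED2-1 and 121 and 125 with siFOXA1+siZBED2-2. Each library with siFOXA1+siZBED2-1 lay below every library without siZBED2-1, and siFOXA1 alone was not called against siControl in either line (log2 -0.14 ± 0.17 (SE), adjusted p = 0.619, and 0.12 ± 0.19 (SE), adjusted p = 0.734). In RT112 the RAB12 level was 2.25-fold lower with siFOXA1+siZBED2-1 than with siFOXA1+siZBED2-2 (log2 difference -1.17 ± 0.18 (SE), n = 2 and 2, adjusted p = 0.00152). RAB12 was 2.61-fold lower with siFOXA1+siZBED2-1 than with siFOXA1+siZBED2-2 in SCaBER (log2 difference -1.39 ± 0.20 (SE), n = 2 and 2, adjusted p = 0.000506). RAB12 was chosen by the single siRNA libraries, which held 39.2 and 47.5 CPM with siZBED2-1 against 119.6 and 116 with siZBED2-2 in RT112, and 22.0 and 20.1 against 117 and 121 in SCaBER.

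CHMP4B polymerises in ESCRT-III filaments that close off membrane necks. In RT112, CHMP4B stood at 372 and 379 CPM with siControl, 422 and 514 with siFOXA1, 204 and 209 with siFOXA1+siZBED2-1 and 418 and 451 with siFOXA1+siZBED2-2. In SCaBER, CHMP4B stood at 123 and 139 CPM with siControl, 178 and 180.2 with siFOXA1, 105 and 98.2 with siFOXA1+siZBED2-1 and 157 and 151 with siFOXA1+siZBED2-2. It was the 1 gene whose difference between the double knock-downs was larger in RT112 at an unadjusted p of 0.0132, which did not pass adjustment (adjusted p = 0.562). In RT112 the CHMP4B level was 2.11-fold lower with siFOXA1+siZBED2-1 than with siFOXA1+siZBED2-2 (log2 difference -1.07 ± 0.13 (SE), n = 2 and 2, adjusted p = 0.000326). CHMP4B was 1.52-fold lower with siFOXA1+siZBED2-1 than with siFOXA1+siZBED2-2 in SCaBER (log2 difference -0.60 ± 0.14 (SE), n = 2 and 2, adjusted p = 0.0413). The RT112 call held under all 10 alternatives, and the SCaBER call was lost without any 1 of the 4 double knock-down libraries (adjusted p up to 0.393, log2 difference between -0.66 and -0.55). CHMP4B was chosen by the single siRNA libraries, which held 171 and 147 CPM with siZBED2-1 against 389 and 417 with siZBED2-2 in RT112, and 76.2 and 72.3 against 144 and 158 in SCaBER.

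DAB2, a cargo adaptor of clathrin-coated pits, ran opposite to the other 7. In RT112, DAB2 stood at 3.07 and 4.03 CPM with siControl, 8.84 and 14.8 with siFOXA1, 29.7 and 42.6 with siFOXA1+siZBED2-1 and 13.6 and 19.8 with siFOXA1+siZBED2-2. In SCaBER, DAB2 stood at 13.0 and 15.1 CPM with siControl, 29.9 and 32.8 with siFOXA1, 39.7 and 47.2 with siFOXA1+siZBED2-1 and 18.5 and 20.1 with siFOXA1+siZBED2-2. Both lines had their highest double knock-down values with siZBED2-1, without overlap. In RT112 the DAB2 level was 2.16-fold higher with siFOXA1+siZBED2-1 than with siFOXA1+siZBED2-2 (log2 difference 1.11 ± 0.38 (SE), n = 2 and 2, adjusted p = 0.18), which did not pass the test. DAB2 was 2.24-fold higher with siFOXA1+siZBED2-1 than with siFOXA1+siZBED2-2 in SCaBER (log2 difference 1.17 ± 0.26 (SE), n = 2 and 2, adjusted p = 0.0293). The RT112 difference was not called under any of 10 alternatives (log2 between 0.83 and 1.41, adjusted p up to 0.69), and the SCaBER call was lost without any 1 of the 4 double knock-down libraries (adjusted p up to 0.316). DAB2 was chosen by the single siRNA libraries, which held 33.4 and 39.96 CPM with siZBED2-1 against 1.93 and 0.867 with siZBED2-2 in RT112, and 39.9 and 43.8 against 11.2 and 10.2 in SCaBER. In RT112 the siZBED2-2 libraries rest on 10 and 5 counts.

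**Figure D2:**
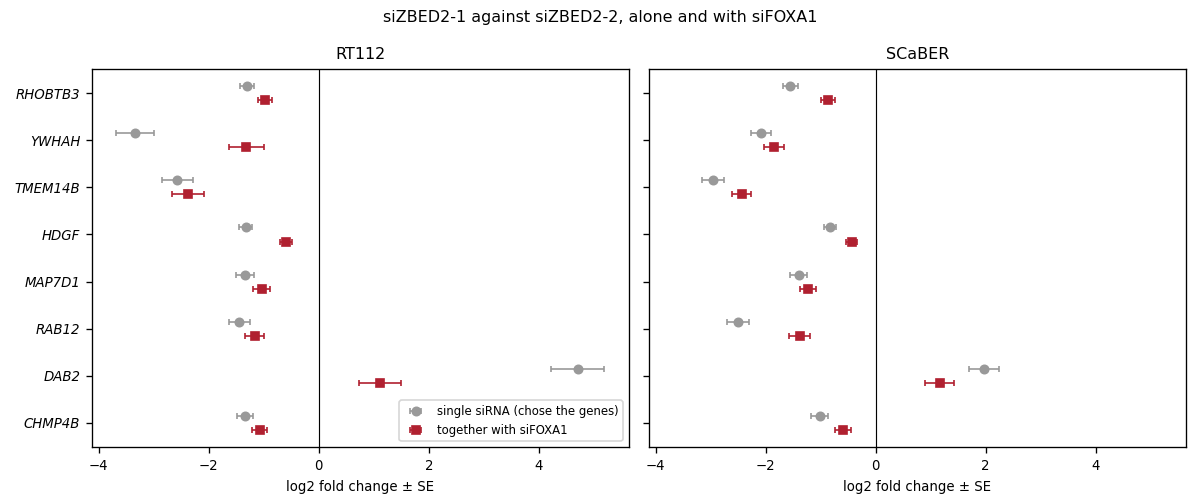
Log2 fold change (x axis, ± SE of the edgeR fit) of siZBED2-1 against siZBED2-2 for each gene, in the single siRNA libraries that chose the genes (grey circles) and together with siFOXA1 (red squares), for RT112 and SCaBER. Every red point lies on the same side of 0 as its grey point and nearer to 0.

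The difference kept its sign in all 8 genes of both lines and was smaller with siFOXA1 present in each. The log2 difference of the double knock-downs was between 23.6% (DAB2) and 92.2% (TMEM14B) of that of the single siRNAs in RT112, with a median of 75.8%, and between 52.9% (HDGF) and 88.9% (YWHAH) in SCaBER, with a median of 59.1%. The single siRNA values chose the genes, so this order was not tested. Such a choice tends to enlarge the values that made it. In the longer list below, members included, medians were also nearer to 0 with siFOXA1. Its 127 lower genes had medians of -1.13 alone and -0.70 with siFOXA1 in RT112, and -0.92 and -0.60 in SCaBER. Of these, 125 and 120 kept their sign. Its 54 higher genes had medians of 0.87 and 0.52 in RT112, and 0.75 and 0.33 in SCaBER. Of these, 53 and 48 kept their sign. Whether the amount of each ZBED2 siRNA was the same in the single and double knock-downs is not given in the sources used here. The choice of the genes, dose and the presence of siFOXA1 therefore cannot be told apart in these percentages. The single siRNA differences themselves had log2 values from -3.34 (YWHAH) to 4.71 (DAB2) in RT112 and from -2.96 (TMEM14B) to 1.96 (DAB2) in SCaBER, where 7.77% and 4.01% of all genes were called, and nothing is read from these shares because this contrast chose the genes.

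No gene of the set was called for a line difference in the size of the siRNA difference by the edgeR test. The count was 0 of 8, where 0.0212% of 14155 genes (3 genes) were called, with 1 gene, CHMP4B, at an unadjusted p under 0.05 and 0 by DESeq2 or limma. So few of all genes were called that nothing is read from the count of 0. The line differences (RT112 minus SCaBER) ran from -0.50 ± 0.19 (SE) for CHMP4B to 0.51 ± 0.37 (SE) for YWHAH on the log2 scale.

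Set against siFOXA1 alone, most of the 8 genes were called with siZBED2-1 added. In RT112, 8 of 8 genes changed with siFOXA1+siZBED2-1, 7 lower and DAB2 higher, where 2.24% of all genes were called. In SCaBER, 6 of 8 changed, all lower, where 2.26% were called, and HDGF (-0.29 ± 0.10 (SE), adjusted p = 0.18) and DAB2 (0.47 ± 0.25 (SE), adjusted p = 0.437) did not pass. With siFOXA1+siZBED2-2, 0 of 8 were called by edgeR in either line, where 0.925% of genes were called in RT112 and 3.21% in SCaBER. These shares are low, so nothing is read from the count of 0. At an unadjusted p under 0.05 there was 1 gene in each line, YWHAH in RT112 (-0.66 ± 0.29 (SE), adjusted p = 0.343) and DAB2 in SCaBER (-0.69 ± 0.26 (SE), adjusted p = 0.191), and DESeq2 and limma also called 0.

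The largest falls against siFOXA1 were those of YWHAH in RT112 (log2 -1.98 ± 0.32 (SE), 3.94-fold lower, adjusted p = 0.00231) and TMEM14B in SCaBER (-2.52 ± 0.17 (SE), 5.74-fold lower, adjusted p = 1.22e-08). DAB2 in RT112 rose 3.04-fold (1.60 ± 0.39 (SE), adjusted p = 0.0351). The medians over the 8 genes were -1.07 in RT112 and -1.01 in SCaBER with siZBED2-1, and 0.09 and -0.04 with siZBED2-2. The 2 comparisons share the siFOXA1 libraries. The RT112 count fell to 5 of 8 without siFOXA1+siZBED2-1 replicate 2, when HDGF (adjusted p = 0.0608), RAB12 (0.0883) and DAB2 (0.306) no longer passed. In RT112, DAB2 was also lost without siFOXA1 replicate 1 (0.144) and RHOBTB3 without siFOXA1 replicate 2 (0.0548). In SCaBER, RHOBTB3 was lost without siFOXA1+siZBED2-1 replicate 1 (0.0775) and CHMP4B without siFOXA1+siZBED2-1 replicate 2 (0.0825), while HDGF passed without siFOXA1 replicate 1 (0.0428). With limma on log2(TPM + 1), 0 of 8 passed in RT112 (adjusted p between 0.0636 and 0.217), where 6 of all genes were called. In SCaBER 4 of 8 passed, where 58 of all genes were called.

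**Figure D3:**
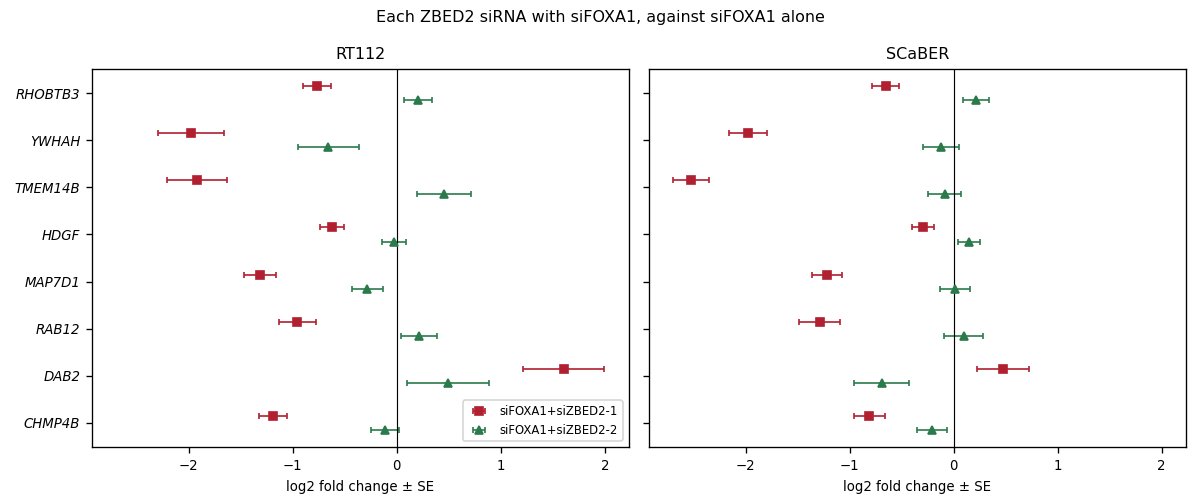
Log2 fold change (x axis, ± SE) against siFOXA1 alone for each gene with siFOXA1+siZBED2-1 (red squares) and siFOXA1+siZBED2-2 (green triangles), in RT112 and SCaBER. With siZBED2-1 7 genes lie below 0 in each line, and with siZBED2-2 the values lie between -0.69 and 0.49.

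FOXA1 knock-down alone moved some of the genes, RHOBTB3 down and MAP7D1 and DAB2 up in both lines. In RT112, 3 of 8 were called against siControl, where 23.7% of all genes were: RHOBTB3 fell (-0.54 ± 0.13 (SE)), and MAP7D1 (0.58 ± 0.15 (SE)) and DAB2 (1.72 ± 0.44 (SE)) rose. In SCaBER, 5 of 8 were called, where 17.8% of all genes were. RHOBTB3 (-0.96 ± 0.12 (SE)) and HDGF (-0.56 ± 0.10 (SE)) fell, and MAP7D1 (0.49 ± 0.14 (SE)), DAB2 (1.15 ± 0.27 (SE)) and CHMP4B (0.45 ± 0.14 (SE)) rose. Whether siFOXA1 acted differently in the 2 lines was not tested. The mitochondrial share of counts moved with this comparison, from 17.8% and 12.2% with siControl to 21.4% and 22.7% with siFOXA1 in RT112, and from 9.74% and 10.7% to 12.9% and 12.5% in SCaBER, and its part in the result was not tested. Between the double knock-downs the shares were closer, 20.6% and 19.8% with siZBED2-1 against 19.4% and 18.6% with siZBED2-2 in RT112, and 11.8% and 11.0% against 11.5% and 9.29% in SCaBER. With the replicate block, 5 of 8 were called in RT112, TMEM14B (-0.71, adjusted p = 0.0404) and CHMP4B (0.31, adjusted p = 0.0477) being added. Several of these calls rest on single libraries: in RT112 RHOBTB3 did not pass without siFOXA1 replicate 1 (adjusted p = 0.0815), MAP7D1 without siControl replicate 2 (0.0879), and DAB2 without siControl replicate 1 (0.0518) or siFOXA1 replicate 2 (0.0865). In SCaBER MAP7D1 did not pass without siFOXA1 replicate 1 (0.2) or siControl replicate 2 (0.132), nor CHMP4B without any 1 of the 4 libraries (0.0578 to 0.238).

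The lines differed in the baseline of 6 of the 8 genes with siControl, where 34.8% of 14155 genes were called. CHMP4B (log2 RT112 against SCaBER 1.51 ± 0.13 (SE), adjusted p = 1.23e-09) and RHOBTB3 (0.38 ± 0.13, adjusted p = 0.0204) were higher in RT112. YWHAH (-0.75 ± 0.24, adjusted p = 0.0169), TMEM14B (-0.68 ± 0.21, adjusted p = 0.013), HDGF (-0.64 ± 0.11, adjusted p = 3.79e-05) and DAB2 (-1.99 ± 0.38, adjusted p = 0.000185) were lower there. With the replicate block RHOBTB3 (0.31, adjusted p = 0.0645) and YWHAH (-0.63, adjusted p = 0.0541) were not called. Without RT112 siControl replicate 1 the count was 3, RHOBTB3 (0.0531), YWHAH (0.152) and TMEM14B (0.0848) having been lost, and without SCaBER siControl replicate 2 it was 4.

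The target transcripts were measured in the same libraries. In RT112, ZBED2 stood at 22.1 and 16.9 CPM with siControl, 5.42 and 1.502 with siFOXA1, 1.91 and 1.41 with siFOXA1+siZBED2-1 and 2.63 and 0.842 with siFOXA1+siZBED2-2. In SCaBER, ZBED2 stood at 19.0 and 19.1 CPM with siControl, 20.4 and 19.0 with siFOXA1, 3.68 and 1.69 with siFOXA1+siZBED2-1 and 9.86 and 11.9 with siFOXA1+siZBED2-2. Under siZBED2-1 alone, ZBED2 CPM was 2.37 and 0 (no read counted) in RT112 and 2.39 and 7.33 in SCaBER. Under siZBED2-2 alone, it was 7.32 and 6.24 in RT112 and 8.84 and 16.0 in SCaBER. ZBED2 was thus lower with siZBED2-1 than with siZBED2-2 in each line except for the RT112 double knock-downs, where the values overlapped and were low in every FOXA1 arm. Its part in the differences of the 8 genes was not tested. FOXA1 held 6.83 and 9.44 CPM with siFOXA1, 4.03 and 11.3 with siFOXA1+siZBED2-1 and 15.5 and 9.89 with siFOXA1+siZBED2-2 in RT112, against 42.1 and 41.2 with siControl. In SCaBER it was already low with siControl (3.77 and 5.58 CPM) and reached at most 1.36 CPM in the FOXA1 arms.

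Few relatives and partners of the 8 genes were called, and few of all genes were, so nothing is read from these counts. TMEM14C, called in both lines, may share reads with TMEM14B. Of 66 genes in 8 lists (14-3-3 proteins, RHOBTB and CUL3 partners, and the TMEM14, HDGF and MAP7 families, endosomal RAB GTPases, clathrin adaptors and ESCRT-III with VPS4), 62 were tested between the double knock-downs in RT112 and 61 in SCaBER. In RT112 1 was called, TMEM14C, beside 1.41% of all genes. In SCaBER 2 were called, beside 1.21% of all genes: TMEM14C and SFN, the sigma form of 14-3-3, which was higher with siZBED2-1 (log2 0.45 ± 0.11 (SE), adjusted p = 0.0431). The 14 ESCRT-III and VPS4 genes had log2 medians of 0.11 in RT112 and 0.07 in SCaBER, and the 15 RAB GTPases had 0.15 and 0.06.

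Across the 24 libraries, after centring log2 CPM on the mean of each line, the 7 lower genes correlated with each other at Pearson r between 0.660 and 0.949 (21 pairs), and DAB2 with them at -0.824 to -0.508. The libraries that chose the genes are among the 24, so these values are a description. Of 14823 genes, those most like each gene were UBA2 and UBAC1 (r = 0.935 both) for RHOBTB3, PAFAH1B3 (0.95) and USP22 (0.943) for YWHAH, and SNX3 (0.939) and HOMER3 (0.927) for TMEM14B. USP22 (0.942) and YWHAH (0.927) were nearest to HDGF, CHMP4B (0.949) and MRPS10 (0.948) to MAP7D1, TMEM14B (0.919) and TRIAP1 (0.918) to RAB12, ACLY (0.977) and MAP7D1 (0.949) to CHMP4B, and SEC22B (0.895) and P4HA2 (0.868) to DAB2. Setting members aside, 7 of the 9 genes named for the 7 lower genes held the heptamer in the 3′ UTR, which 14.2% of genes tested hold. These 9 were picked for following the members from which the heptamer was taken, so the count gives no separate support.

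The 8 genes were drawn from a longer list. In the single siRNA libraries 184 genes were called in both lines and 181 had the same direction in both, 127 lower and 54 higher with siZBED2-1. The 8 stood among the first 10 of these by the larger of the p-values of the lines; the other two, chosen here after their values were seen, were ACLY, the enzyme that makes cytosolic acetyl-CoA, and the tight junction gene CLDN1. ACLY was also lower with siFOXA1+siZBED2-1 (log2 -1.59, adjusted p = 0.000377, in RT112 and -1.07, adjusted p = 8.67e-05, in SCaBER), while CLDN1 was not called (0.51, adjusted p = 0.142, and 0.36, adjusted p = 0.333). Leaving out the members, 44 of 120 lower genes of the list were called lower between the double knock-downs in RT112, beside 0.878% of all genes, and 38 of 120 in SCaBER, beside 0.863%, with medians of -0.68 and -0.59. Of 53 higher genes, 10 were called higher in RT112, beside 0.53% of all genes, and 8 in SCaBER, beside 0.348%, with medians of 0.51 and 0.32.

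The heptamer was found by ranking, with results in view. All 16384 heptamers were searched on the transcript strand of the 3′ UTRs of 10162 genes tested in both lines. Of these heptamers 2 stood in the 3′ UTR of each of the 7 lower genes, GCATCTG, in 14.2% of the genes, and AAATAAA, in 55.9%, and 0 stood in just 6. The canonical transcript was chosen after the longest annotated 3′ UTR had been tried, under which 6 of 7 lower genes held GCATCTG and TMEM14B did not. The counts below leave out the 8 members, but the same double knock-down libraries served to find the heptamer and to describe it, so they give no independent support.

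Genes with the heptamer had lower medians in the libraries with siZBED2-1. Between the double knock-downs the median log2 difference was -0.08 for 1439 genes with it and 0.02 for 8715 without it in RT112, and -0.10 and 0.01 in SCaBER. Of the genes with it, 2.99% (43) were called lower in RT112 and 2.43% (35) in SCaBER, against 0.608% (53) and 0.723% (63) of those without it. Read the other way, 44.8% of 96 genes called lower in RT112 held it and 5.26% of 57 called higher, and in SCaBER 35.7% of 98 and 8.57% of 35. Among lower genes of the longer list, chosen by the single siRNA libraries, 59.5% of 116 held it, and 8% of 50 higher genes did.

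Against siFOXA1 alone the medians with and without the heptamer were -0.12 and 0.01 for siFOXA1+siZBED2-1 in RT112 and -0.11 and 0.02 in SCaBER, whereas for siFOXA1+siZBED2-2 they were 0.01 and 0.00 in RT112 and 0.01 and 0.02 in SCaBER. For siFOXA1 against siControl they were 0.02 and 0.01 in RT112, and 0.01 and -0.01 in SCaBER. Of 13539 heptamers held by at least 200 genes, GCATCTG had the lowest difference of medians, rank 1, in all 4 comparisons of siFOXA1+siZBED2-1 with siFOXA1 or siFOXA1+siZBED2-2. The margin was small: the differences were -0.098 between the double knock-downs in RT112 and -0.118 in SCaBER, where the next heptamer stood at -0.084 and -0.104, and -0.128 and -0.125 against siFOXA1, where the next stood at -0.101 and -0.103. Other heptamers reached values of like or larger size in comparisons without siZBED2-1, namely -0.134 in RT112 and -0.095 in SCaBER for siFOXA1+siZBED2-2 against siFOXA1, and -0.194 and -0.248 for siFOXA1 against siControl. In these GCATCTG ranked 8409 and 6643 for siFOXA1+siZBED2-2 and 3185 and 5422 for siFOXA1 in RT112 and SCaBER. The spread over genes was not the same in all comparisons. In RT112 the quartiles of genes without the heptamer were -0.259 and 0.279 between the double knock-downs. They were -0.277 and 0.298 for siFOXA1+siZBED2-2 against siFOXA1, and -0.520 and 0.500 for siFOXA1 against siControl. Medians over as few as 200 genes also vary more than one over 1439. With the longest 3′ UTRs the rank of GCATCTG was 4 of 13900 between the double knock-downs of RT112 and 1 in the other 3 comparisons. The double knock-down comparisons share libraries with those against siFOXA1, so these ranks are not independent.

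**Figure D4:**
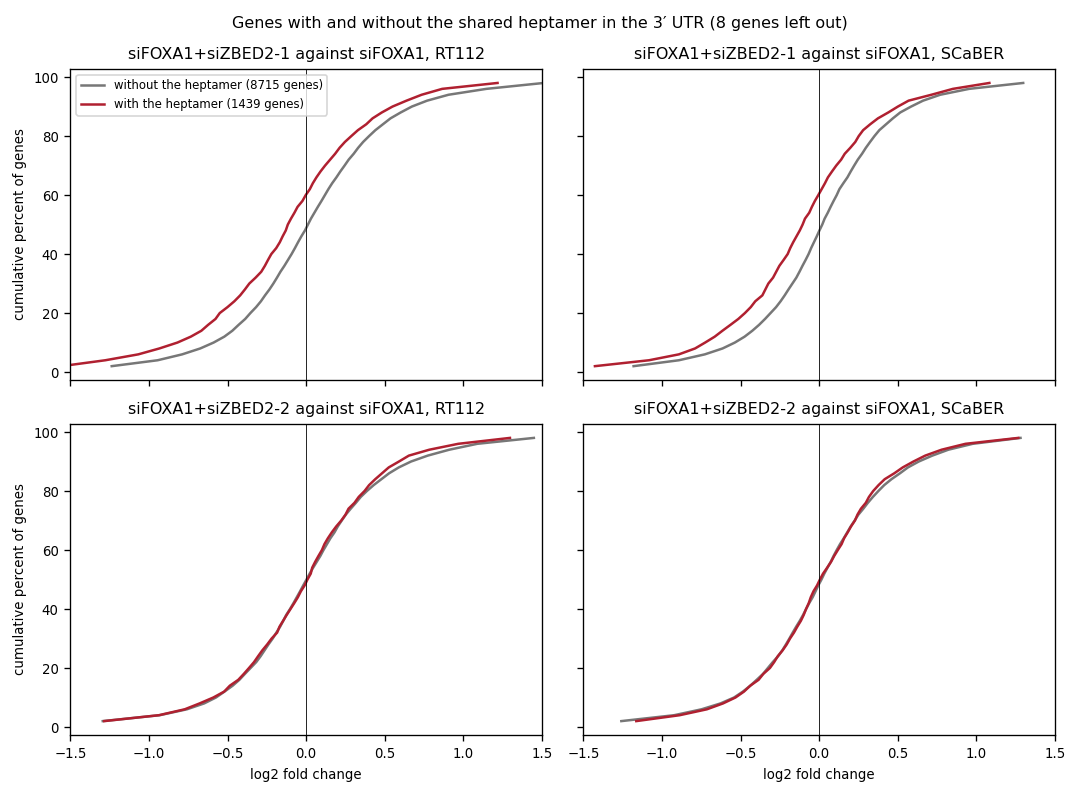
Cumulative percent of genes (y axis) by log2 fold change against siFOXA1 (x axis), for 1439 genes with the heptamer in the 3′ UTR (red) and 8715 without it (grey), the 8 members left out. With siFOXA1+siZBED2-1 (top) the red curve lies to the left, with medians of -0.12 and -0.11, and with siFOXA1+siZBED2-2 (bottom) the curves run together.

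Genes with the heptamer have longer 3′ UTRs (median 3063 bases against 1191). The medians are therefore also described within 4 classes of 3′ UTR length with nearly equal numbers of genes. These classes rest on the libraries that served to find the heptamer, so they give no independent support and no cause was tested. Between the double knock-downs the difference of medians was -0.33, -0.12, -0.14 and -0.08 from the shortest to the longest class in RT112 and -0.31, -0.14, -0.11 and -0.10 in SCaBER. The shortest class held 59 genes with the heptamer. For siFOXA1+siZBED2-2 against siFOXA1 the same differences lay between -0.07 and 0.14 in both lines. Among genes with 1 copy, the 274 in which an A followed it had medians of -0.18 in RT112 and -0.12 in SCaBER between the double knock-downs, and those with another base next had medians between -0.06 and -0.05 in RT112 and between -0.12 and -0.08 in SCaBER. Genes that held it only before the 3′ UTR had medians of -0.02 in RT112 and -0.05 in SCaBER. Genes that held it nowhere in the transcript had 0.02 in both lines. For siFOXA1+siZBED2-1 against siFOXA1 these groups had medians of -0.03 and 0.02 in RT112, and -0.06 and 0.03 in SCaBER. In that comparison 1.61% and 0.439% were called lower in RT112, and 1.47% and 0.823% in SCaBER. Between the double knock-downs 0.771% and 0.576% were called lower in RT112, and 0.701% and 0.604% higher. In SCaBER 1.26% and 0.617% were called lower there, and 0.35% and 0.37% higher. Genes that held it only before the 3′ UTR thus had medians slightly below those of genes that held it nowhere, a difference that was not tested.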

How the data were processed

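The data were 24 libraries of 3′ RNA-seq from 2 cell lines. The authors deposited raw counts, whole numbers of reads per gene; the labels and their processing notes name TrimGalore 0.6.2, STAR 2.6.1a, hg38 and GENCODE release 29, while the study's methods name hg19. The authors also deposited TPM values, which scale by gene length although 3′ reads do not grow with it, so TPM served 1 alternative. No molecular identifiers are stated.

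The members and lists were chosen with earlier results of these data known. The members were chosen by the single ZBED2 siRNA libraries. The named genes are the members, the siRNA targets, called relatives from the lists, and the 2 genes most correlated with each member. ACLY and CLDN1 were named after their values were seen, and the cell type markers come from a list. The edgeR 4.0.16 quasi-likelihood test (R 4.3.3, TMM, filterByExpr with minimum count 10) was fitted to the 8 other libraries of each line, or 16 of both. A gene was called at a Benjamini-Hochberg adjusted p under 0.05 over all genes tested, in genome-wide fits. The script was tested on simulated data, where the minimum share of changed genes to be recovered was lowered after the first run had fallen short of it. Alternatives were RLE size factors, no filter, DESeq2 1.42.0, limma 3.58.1 on log2(TPM + 1), the replicate block, all libraries of the line, and each compared library left out. Replicate numbers are labelled as experiment batches, so a number marks a shared batch, yet same-numbered libraries deviated together little (mean correlation 0.0336 in RT112 and 0.0259 in SCaBER, 0 of 15 pairs over 0.1 in each). Replicates of all 12 groups differed by more than counting noise. Heptamers were counted in 3′ UTRs of at least 20 bases from GENCODE release 44 lifted to GRCh37, in canonical transcripts, with no test. Protein sequences were not used here.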

Additional observations from a re-analysis of the deposited data

How the results depend on the processing

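Of the member values outside the fits that left out a library, 496 kept their direction and side of the threshold, 27 lost the call, 5 gained it and 0 reversed; with 1 library left out the counts were 372, 41, 3 and 0. Where an arm kept 1 library, that library was assumed to vary like the other groups. With 2 libraries per group the calls near the threshold are the least secure.

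Without the filter on low counts, the genes called numbered 380 in RT112 and 253 in SCaBER between the double knock-downs, 490 and 432 for siFOXA1+siZBED2-1 against siFOXA1, 341 in RT112 for siFOXA1+siZBED2-2 against siFOXA1, and 43 for the line difference. DESeq2 called 322 and 245 between the double knock-downs, 307 in RT112 for siFOXA1+siZBED2-2 against siFOXA1, and 30 for the line difference. With limma on log2(TPM + 1) these numbers were 14 and 18 between the double knock-downs, 214 over both lines, 0 for the line difference, 6 and 58 for siFOXA1+siZBED2-1 against siFOXA1, and 1 and 113 for siFOXA1+siZBED2-2 against siFOXA1. Of the 8 members, limma called 2 in RT112 and 3 in SCaBER between the double knock-downs, 1 and 3 for siFOXA1 against siControl, and 0 in RT112 for siFOXA1+siZBED2-1 against siFOXA1. The fit with the single siRNA libraries included called 8 genes for the line difference. The causes were not tested.

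With the replicate block the calls between the double knock-downs numbered 337 (RT112) and 281 (SCaBER), 460 and 498 for siFOXA1+siZBED2-1 against siFOXA1, 281 and 652 for siFOXA1+siZBED2-2 against siFOXA1, and 13 for the line difference. Of the members, 5 were called for siFOXA1 against siControl in RT112 with the replicate block, and RHOBTB3 and YWHAH lost the call between the siControl libraries of the lines. It changed no other call of a member.

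Leaving out 1 library at a time gave 66 to 230 genes called between the double knock-downs in RT112 and 20 to 102 in SCaBER, 86 to 347 and 67 to 334 for siFOXA1+siZBED2-1 against siFOXA1, 14 to 353 and 161 to 498 for siFOXA1+siZBED2-2 against siFOXA1, 1781 to 2824 in RT112 for siFOXA1 against siControl, 278 to 478 over both lines and 1 to 12 for the line difference. The member counts were 5 to 7 (RT112) and 5 (SCaBER) between the double knock-downs, 5 to 8 in RT112 for siFOXA1+siZBED2-1 against siFOXA1, 2 to 4 (RT112) and 3 to 4 (SCaBER) for siFOXA1 against siControl, and 3 to 5 between the siControl libraries. The difference of medians for the heptamer, recomputed under each alternative after the data had been seen, stayed between -0.14 and -0.10 between the double knock-downs when a library was left out in RT112, and between -0.13 and -0.10 in SCaBER.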
